A study of Mus musculus with 5 samples.

Results

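RXRα binding was examined at 36 genes of the lysosome and of its transcriptional control, out of 21938 protein-coding genes of the mouse. The members were a fixed list of names: 8 lysosomal membrane proteins, 8 proteases (cathepsins and legumain), 5 hydrolases of sugar and sulfate groups, 6 proteins of lipid hydrolysis and transport, 5 subunits of the proton pump (V-ATPase), the factors Tfeb and Mitf, and Sqstm1 and Gpnmb, known targets of these factors. A peak was given to a member where the transcription start site (TSS) nearest to the peak midpoint, among all protein-coding genes of the GENCODE annotation of mm10, was that of the member. By this rule the members received 48 of the 4751 WT A peaks and 113 of the 9766 WT G peaks, but only 1 of 83 from KO A and 1 of 208 from KO G.

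The peaks came from HT-ChIPmentation with an antibody to RXRα, an assay that immunoprecipitates fixed chromatin and builds the sequencing library on the beads with a transposase. It was performed on mature alveolar macrophages (AMs), the macrophages of the airspace, washed from the lungs (bronchoalveolar lavage) and purified by FACS. All mice had the C57BL/6J background and floxed Rxra and Rxrb alleles (Rxrabfl/fl). WT A and WT G were CD11cCre-, with both receptors intact, and KO A and KO G were CD11cCre+, in which Cre under Cd11c control deletes both genes in AMs. Cd11c is also expressed by dendritic cells, so deletion need not be confined to AMs. The mice of both genotypes were 9 wk old. The labels do not say whether A and G were separate animals or pools, so a p-value over them measures only the spread between these libraries. An input of the CD11cCre- genotype served as background for peak calling.

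Lysosomes degrade material taken up by phagocytosis and endocytosis, and in AMs this includes surfactant lipid and protein. Many lysosome genes are switched on by the MiT/TFE factors (TFEB, TFE3, MITF and TFEC), which bind an E-box with the letters CACGTG that often lies close to the TSS, or the related M-box. RXRα is a nuclear receptor that binds DNA mainly as a heterodimer with partners such as PPARγ, LXRs and RARs at pairs of hexamers spaced by a fixed number of bases, for example DR1 (AGGTCANAGGTCA) for PPARγ, and macrophage enhancers also commonly hold sites for PU.1 and C/EBP.

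The DNA under the strongest member regions is given first, since these regions carry the values described below. Each line shows 50 bases on each side of the summit, from the plus strand of GRCm38 (mm10), 5′ to 3′, taken from RefSeq. Capitals mark a match to DR1 with at most 2 mismatches, or an exact match to the PU.1 motif GAGGAAGT, the C/EBP motif TTGCNNAA or the M-box core TCATGTG, on either strand. The first 6 lines are the strongest regions by the sum of −log10 q in both WT lists, and the last pair are the other regions with a DR1 match.
Scarb2, chr5:92504385-92504485: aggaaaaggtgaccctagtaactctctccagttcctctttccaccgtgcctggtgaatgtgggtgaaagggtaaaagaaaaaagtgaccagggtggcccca
Atp6v0d2, chr4:19895229-19895329: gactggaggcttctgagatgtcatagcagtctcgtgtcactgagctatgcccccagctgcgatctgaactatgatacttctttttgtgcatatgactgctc
Lgmn, chr12:102367135-102367235: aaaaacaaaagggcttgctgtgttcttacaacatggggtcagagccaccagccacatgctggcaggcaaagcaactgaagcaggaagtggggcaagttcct
Ctsd, chr7:142399344-142399444: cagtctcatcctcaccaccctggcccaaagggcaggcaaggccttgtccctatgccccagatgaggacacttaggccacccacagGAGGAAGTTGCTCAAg
Psap, chr10:60261034-60261134: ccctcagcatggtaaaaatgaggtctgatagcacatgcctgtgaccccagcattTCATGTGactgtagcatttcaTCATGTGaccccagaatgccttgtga
Ctsb, chr14:63132243-63132343: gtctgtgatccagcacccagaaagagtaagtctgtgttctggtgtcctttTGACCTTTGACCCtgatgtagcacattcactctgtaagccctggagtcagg
Ctsd, chr7:142398141-142398241: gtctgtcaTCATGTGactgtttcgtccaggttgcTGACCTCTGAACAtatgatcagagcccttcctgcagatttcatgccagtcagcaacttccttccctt
Sqstm1, chr11:50211735-50211835: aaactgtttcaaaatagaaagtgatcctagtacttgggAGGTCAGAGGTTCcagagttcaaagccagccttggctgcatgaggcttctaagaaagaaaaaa

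The match at Ctsb (chr14:63132293-63132305, minus strand) reads GGGTCAAAGGTCA and differs from DR1 by A1G, counting from the 5′ end of the motif. The match at Ctsd (chr7:142398175-142398187, minus strand) differs by A1T and G3T, and that at Sqstm1 (chr11:50211773-50211785, plus strand) by C12T and A13C. In the strongest Ctsd window the PU.1 and C/EBP matches overlap by 1 base, and the Psap window holds the M-box core at 2 positions (chr10:60261088-60261094 and chr10:60261109-60261115). The windows of Scarb2, Atp6v0d2 and Lgmn held none of these letters. DR1 was found in 3 of 41 member regions (7.32%), beside 6.34% of all 3423 regions in both WT lists. The M-box core was found in 3 member regions (7.32%, beside 3.04%), C/EBP in 6 (14.6%, beside 11%), PU.1 in 2 (4.88%, beside 4.38%) and AP-1 (TGANTCA) in 3 (7.32%, beside 7.51%). DR4 (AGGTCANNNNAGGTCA), DR5 (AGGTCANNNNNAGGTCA) and the E-box each occurred in 1 member region (2.44%), beside 1.9%, 2.57% and 1.81% of all regions. With 41 regions, the exact 95% interval of each member share held the share of all regions, so no motif set the members apart at this number.

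The first question was how many of these genes lay next to RXRα binding. In WT A, 18 of 36 members (50%, 95% exact binomial interval 32.9 to 67.1) were nearest to a peak, beside 10.4% of all protein-coding genes. In WT G there were 27 (75%, 57.8 to 87.9), beside 16.6% of all genes. A region with a peak in both WT lists lay nearest to 16 members (44.4%, 27.9 to 61.9), beside 8.82% of all genes. Genes with few neighbours collect more peaks by this rule, so all genes were also weighted to the spacing of the members, in 10 classes. Spacing was the length of sequence nearer to a TSS of the gene than to that of any other protein-coding gene. The weighted shares were 9.57% (WT A), 15.7% (WT G) and 8.12% (both lists), the last equal to 2.92 genes of 36. The median spacing was 40.8 kb for the members and 47 kb for all genes. Where an overlap had to cover 50% of both peaks, the members with a region in both lists fell to 8, beside 5.29% of all genes. Mitf, Tfeb, Cd68, Laptm5, Lgmn, Lipa, Psap and Atp6v1b2 were the members that lost theirs at that setting. A narrow peak wholly inside a wide one can fail it, and the shortest peak was 116 bp in WT A and 215 bp in WT G. The intervals cover counting error only, and since the genes were chosen with results of these data known, no test of the excess was made.

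**Figure D1:**
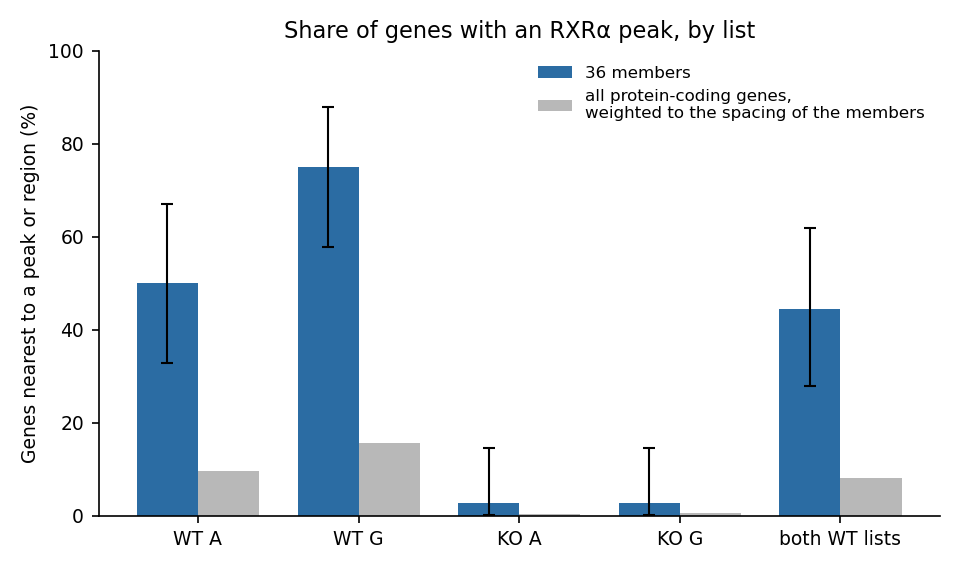
Share of genes (%, vertical axis from 0) nearest to a peak in each list, or to a region in both WT lists; blue bars are the 36 members with exact 95% binomial intervals and grey bars are all protein-coding genes weighted to the spacing of the members. The members stood at 50% (WT A), 75% (WT G) and 44.4% (both WT lists), and at 2.78% in each KO list.

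The 16 members with a region in both WT lists were Scarb2, Laptm5 and Cd68 of 8 membrane proteins, Ctsd, Ctsb, Ctsz and Lgmn of 8 proteases, Lipa, Psap and Npc2 of 6 lipid genes, Atp6v0d2, Atp6v1b2 and Atp6v0d1 of 5 V-ATPase subunits, both MiT/TFE factors, and Sqstm1. None of the 5 sugar and sulfate hydrolases had such a region. Another 10 members had a peak in WT G only, beside 7.12% of all genes, Asah1 had one in WT A only, beside 0.916%, and Laptm4a had peaks in both lists that did not overlap. The 8 members without any peak were Cd63, Mcoln1, Ctsa, Glb1, Galns, Npc1, Smpd1 and Atp6v1h. Regions clustered at some genes: Ctsd had 7, a number that 2.12% of all genes with a region reached, and Atp6v0d2, Laptm5 and Atp6v1b2 had 4 each (9.15% of all genes with a region had as many). Of the 16 members with a region, 37.5% had at least 3, beside 17.5% of all 1934 such genes.

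**Figure D2:**
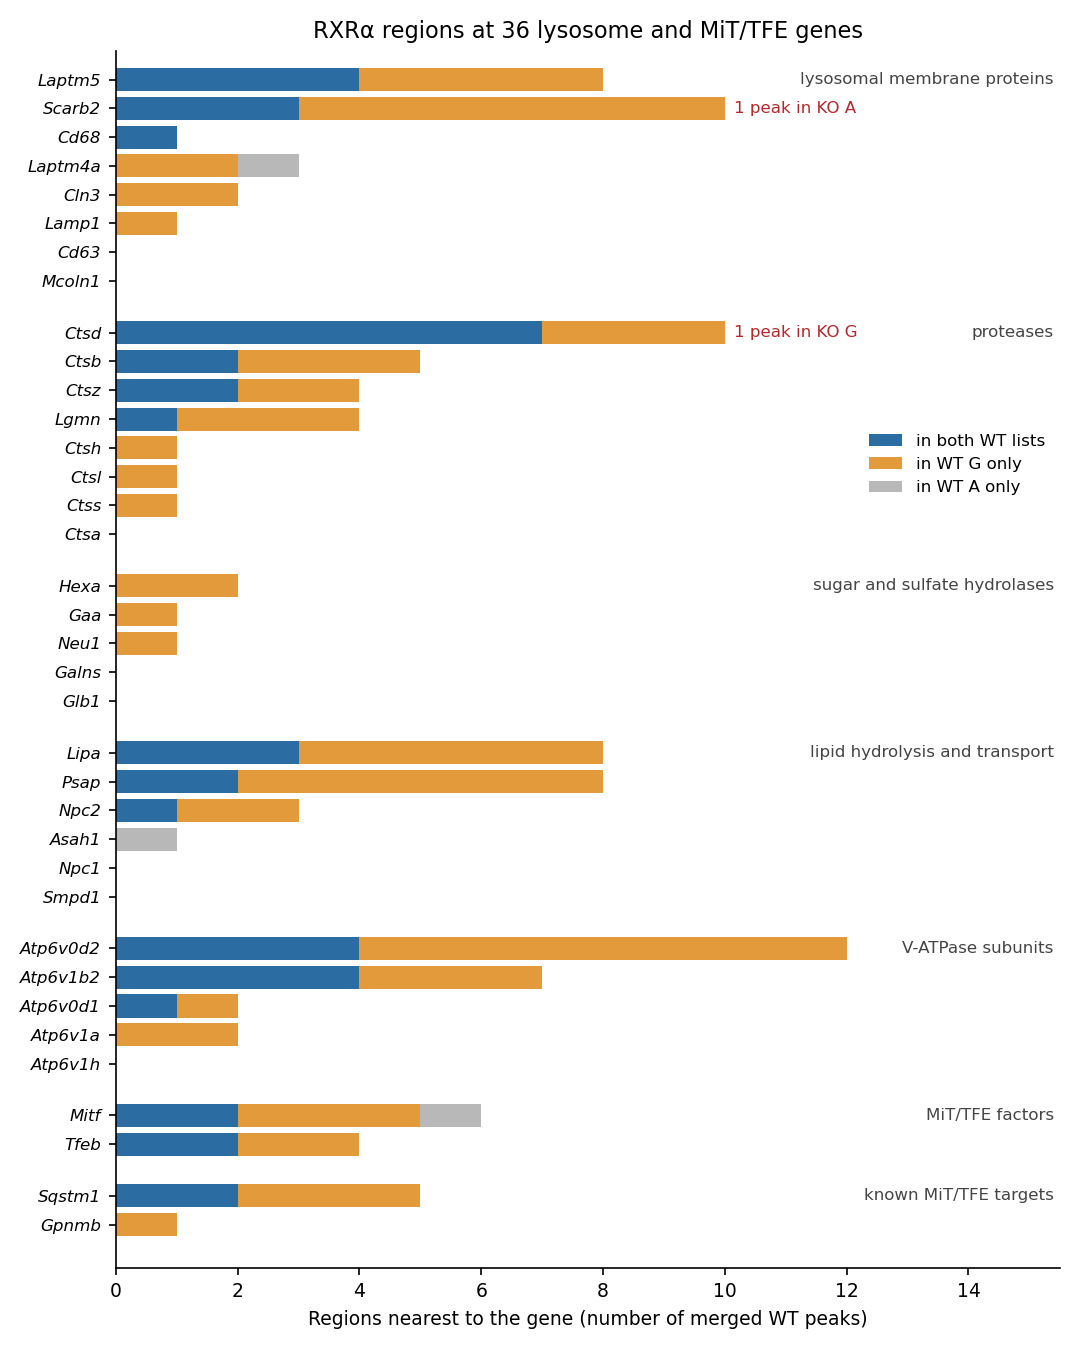
Number of merged WT regions nearest to each of the 36 members (horizontal axis), grouped by role; blue is in both WT lists, orange in WT G only and grey in WT A only, and red text marks the KO peaks. Ctsd has the most regions in both lists (7), and 8 members have no region.

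Among the membrane proteins, Scarb2 encodes LIMP-2, which carries glucocerebrosidase to the lysosome. Its strongest region (chr5:92503735-92505260) lay in its own intron, 1.14 kb downstream of the TSS. Its −log10 q reached 23.3 (WT A) and 18.8 (WT G), with fold enrichments over background of 13 and 12.9. This was the strongest region of the 36 genes in either list, and rank 108 of 3423 among all regions in both lists. A second Scarb2 region lay 3.34 kb upstream (−log10 q 12.4 and 8.04) and another 18.7 kb downstream (5.22 and 9.26).

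Laptm5 encodes a lysosomal transmembrane protein of hematopoietic cells. Its 4 regions all lay in introns, from 1.25 to 8.5 kb downstream of the TSS, and the strongest were a tie, with −log10 q values of 8.06 (WT A) and 8.04 (WT G) at both chr4:130917227-130918064 and chr4:130921177-130922074. A peak 0.241 kb downstream of the TSS with a −log10 q of 10.5 was listed for WT G alone. Cd68, which encodes macrosialin, a heavily glycosylated protein of macrophage endosomes and lysosomes, had a single region that lay on its promoter (chr11:69666118-69666486, midpoint 149 bp upstream). Both lists gave it a like strength, at −log10 q values of 6.16 (WT A) and 5.87 (WT G) and fold enrichments of 6.32 and 6.43. The remaining membrane genes had no region in both lists. Lamp1, a major glycoprotein of the lysosomal membrane, had 1 intronic peak in WT G (1.78 kb, −log10 q 3.87), and Cln3, mutated in juvenile Batten disease, had 2 promoter peaks in WT G with a strongest −log10 q of 5.73. For Laptm4a, the WT G peak at 1.45 kb had a −log10 q of 5.87, and the WT A peak (5.22) and another WT G peak (2.11) lay 56.6 and 56.8 kb upstream without overlap.

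The protease genes held 12 of the 41 regions, and 7 of these belonged to Ctsd, the gene of the aspartic protease cathepsin D. All 7 lay upstream of its TSS, between 2.38 and 16.8 kb, in intergenic DNA. The strongest (chr7:142398928-142399794, 11.3 kb upstream) reached 15.8 (WT A) and 10.5 (WT G) on the −log10 q scale, the next (15.9 kb upstream) 14.7 and 9.26, and the region with the DR1 match (10.3 kb upstream) 11.8 and 9.26. The other 4 ranged from 4.31 to 9.06 (WT A) and from 2.95 to 5.45 (WT G), so the row held strong and weak regions side by side. Ctsb, the gene of the cysteine protease cathepsin B, had its strongest region (chr14:63131790-63132628) in an intron 9.75 kb downstream, with a −log10 q of 14.7 and 10.5. The DR1 match printed above began at the summit base of this region in WT A, position 63132293 of chromosome 14.

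Ctsz, the gene of cathepsin Z, had an intronic region 1.24 kb downstream (chr2:174437623-174437972, −log10 q 8.06 and 13.2 for WT A and WT G). A second Ctsz region (chr2:174438902-174439285) lay on the promoter, with a midpoint 54 bp upstream of the TSS and a −log10 q of 8.06 and 5.73. Lgmn encodes legumain, an asparaginyl endopeptidase that processes cathepsins. Its region (chr12:102367071-102368336, −log10 q 15.8 and 11.8) was among the strongest of the set but lay 56.1 kb from the Lgmn TSS, within an intron of Rin3. Of the remaining proteases, Ctsh and Ctss had a distal peak in WT G only (11.3 and 5.49 kb upstream, −log10 q 4.64 each) and Ctsl had a promoter peak in WT G only (2.63). No peak of any list was assigned to Ctsa, the gene of protective protein cathepsin A.

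The hydrolases of sugar and sulfate groups had peaks in WT G only. Neu1, the gene of lysosomal sialidase, had the strongest, 7.05 kb downstream of its TSS (−log10 q 10.5, fold enrichment 9.03, no WT A peak). Hexa, the gene of the hexosaminidase alpha chain, had 2 intronic peaks with a −log10 q of 3.61 each, and Gaa, the gene of acid alpha-glucosidase, had 1 promoter peak of 2.63. Glb1 and Galns had none.

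In the lipid group, Lipa encodes lysosomal acid lipase, which hydrolyses cholesteryl esters and triglycerides. Its 3 regions were intronic, and the strongest (chr19:34515637-34516300, 11.5 kb downstream) reached a −log10 q of 14.7 (WT A) and 9.26 (WT G). Psap encodes prosaposin, the precursor of the activators of sphingolipid breakdown. Its region 16.7 kb upstream (chr10:60260490-60261293) had a −log10 q of 13.2 and 12.6, and a second, within the gene and 1.68 kb upstream of an alternative TSS, had 12.4 and 5.73. Npc2, the gene of a soluble cholesterol carrier, had 1 intronic region 11.4 kb downstream (chr12:84761307-84762168, 9.11 and 10.5). The TSS of the next gene, Isca2, was 11.5 kb away from this region and thus nearly as near. Asah1, the gene of acid ceramidase, had a peak in WT A only, 0.983 kb downstream (4.31). Npc1, the membrane partner of Npc2, and Smpd1, the acid sphingomyelinase gene, had no peak, so 3 of the 6 lipid genes had a region in both WT lists.

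The V-ATPase acidifies the lysosome. Atp6v0d2, which encodes a d subunit found in osteoclasts and macrophages in particular, received the most WT G peaks of any member, 14, and 5 from WT A, where Ctsd had 8. Its strongest region (chr4:19894465-19895952) lay 27.4 kb downstream in an intron, with a −log10 q of 15.8 and 14.5, and a weaker one (chr4:19921746-19923601) covered its promoter (4.31 and 5.73). The ubiquitous d subunit gene Atp6v0d1 had 1 weak intronic region 1.21 kb downstream (chr8:105564666-105565011, 6.16 and 3.61). Atp6v1b2, the gene of a B subunit of the V1 sector, had 4 regions, all between 65.7 and 80.3 kb upstream of its TSS. The strongest by the sum of both lists (chr8:69010543-69011088) stood at 13.4 (WT A) and 5.73 (WT G), and the TSS of the next gene, Slc18a1, was 78.4 kb away from it and thus nearly as near. Atp6v1a had 2 peaks in WT G only, 19.3 kb downstream (5.73) and on its promoter (4.64), and Atp6v1h had none.

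Both MiT/TFE factors of the set had 2 regions in both WT lists, none of them on a promoter and none shared where an overlap had to cover 50% of both peaks. That setting could not keep them, since each WT A peak was under 50% as wide as its WT G peak. At Tfeb, the WT A peaks (183 and 160 bp) lay wholly inside the WT G peaks (536 and 741 bp). At Mitf, peaks of 128 bp (WT A) and 264 bp (WT G) overlapped in part, and WT A peaks of 196 and 127 bp lay inside a WT G peak of 720 bp. Tfeb, the factor for which the lysosome gene programme is best known, had an intronic region 18.3 kb downstream (chr17:47756955-47757490, −log10 q 9.11 and 5.73 for WT A and WT G). A second Tfeb region (chr17:47766791-47767531), also in an intron and 18.6 kb upstream of an alternative TSS, had 5.22 and 9.26. The regions of Mitf were weaker, at 6.15 and 5.73 for the one in an intron 49.3 kb downstream (chr6:97856199-97856514) and 5.22 and 4.77 for one 100 kb downstream of the nearest TSS and beyond the gene (chr6:98091582-98092301). Of the known targets, Sqstm1, the gene of the autophagy receptor p62, had 2 regions 1.19 and 2.32 kb upstream of its TSS. The first (chr11:50211445-50212586) had a −log10 q of only 3.94 for WT A and of 14.2 for WT G, the widest gap between the lists among the 41 regions. Both Sqstm1 regions lay within an intron of Mgat4b, the neighbour transcribed the opposite way. Gpnmb, which encodes a transmembrane glycoprotein of macrophages and melanocytes, had 1 promoter peak in WT G (4.12).

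The assignment of some genes depended on the annotation used. An alternative chosen after seeing the data used every transcript of the comprehensive annotation in place of the basic set. Under it, Sqstm1, Lgmn and Atp6v1b2 lost their regions to other genes and Cln3 and Galns gained one. That gave 15 members with a region in both lists, beside 8.77% of all genes at that setting. The remaining 13 had one under both annotations.

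The second question was where the regions lay. Of the 41 member regions in both lists, 3 (7.32%, 95% exact interval 1.54 to 19.9) lay in a promoter, defined as the 1 kb before a TSS and the 100 bp after it, and 38 were distal. The share of all regions was 7.04%. The promoter regions were those of Cd68, Ctsz and Atp6v0d2. By feature, 23 lay in introns and 18 between genes, and 20 lay within the body of the member itself. Member regions lay closer to the TSS than regions in general, with a median distance of 8.5 kb beside 15.7 kb, and 80.5% within 20 kb beside 56.2%. The 41 regions came from 16 genes, with 7 at Ctsd, so a few clusters weigh on these values. The difference was not tested. The 70 member regions found in WT G only had a promoter share of 17.1%, beside 14.7% of all such regions. Promoters of 3 kb on each side raised the member share to 26.8%, beside 20.7% of all regions.

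**Figure D3:**
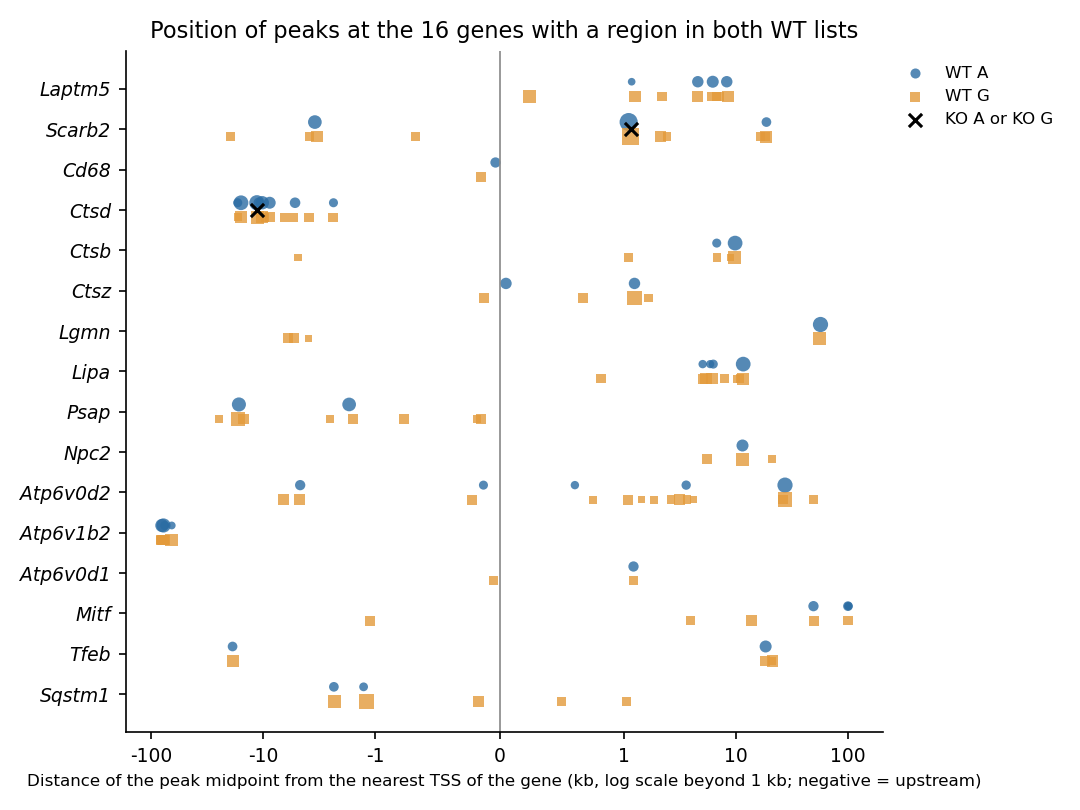
Distance of each peak midpoint from the nearest TSS of its gene (kb, log scale beyond 1 kb, negative is upstream) for the 16 genes with a region in both WT lists; blue circles are WT A and orange squares WT G, with larger symbols for a higher −log10 q, and crosses are KO peaks. Ctsd peaks all lie upstream, Atp6v1b2 peaks lie far upstream, and Laptm5, Lipa and Npc2 peaks lie downstream of the TSS.

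The regions at these genes were next set beside all regions by strength. Their median −log10 q, 8.06 for WT A and 8.04 for WT G, equalled the medians of all regions in both lists. Values spanned 2.5 to 23.3 (WT A) and 2.95 to 18.8 (WT G). By the sum of both lists, 2 of 41 were among the 347 strongest of all 3423 regions and 8 of 41 among the 687 strongest. The fold enrichment was higher in WT A for 19 regions and in WT G for 22, and Spearman's rho between the lists was 0.35 over the 41 regions and 0.50 over all 3423, values given as a description since regions share their libraries. Behind these values lay 17 fragments at the median WT A summit (12 to 32) and 11 at the median WT G summit (7 to 19), derived from the fold enrichment and p of each peak. Of the 48 WT A peaks, 45 (93.8%) overlapped a WT G peak, beside 83.2% of all WT A peaks, while 43 of 113 WT G peaks (38.1%) overlapped a WT A peak, beside 36.1%.

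**Figure D4:**
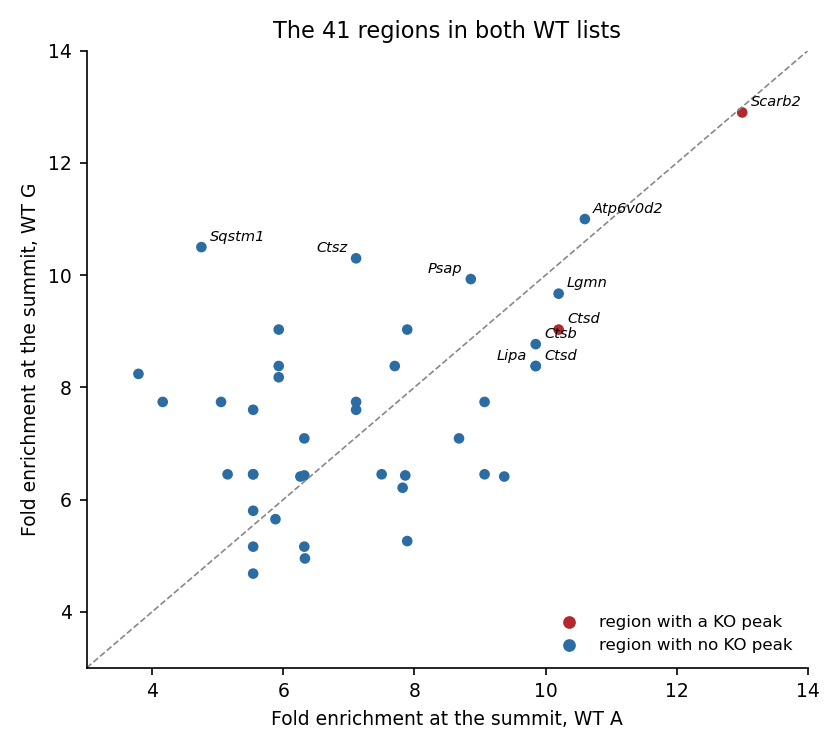
Fold enrichment at the summit in WT A (horizontal axis) and WT G (vertical axis) for each of the 41 member regions in both WT lists; the dashed line marks equal values and red points are the regions that also had a KO peak. Scarb2 stands highest in both lists (13 and 12.9), and the Sqstm1 region with a DR1 match lies far above the line (4.75 in WT A and 10.5 in WT G).

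Since MiT/TFE factors act through E-boxes near the TSS, promoter sequence was also read from the RefSeq table of GRCm38.p6, in the 250 bases before the TSS. The table matched 28 members; Asah1, Atp6v0d2, Atp6v1b2, Atp6v1h, Ctsb, Ctsh, Galns and Npc1 had no entry. This is under 80% of the members, so a share over the whole set is void and the counts describe the 28 genes only. CACGTG occurred in 10 of them: Lamp1 (4 sites), Mcoln1, Cln3 and Ctsd (2 sites each), and Ctsa, Ctsl, Gaa, Glb1, Lgmn and Atp6v1a (1 site each). Of all 16522 genes in the table, 7.81% had one. Among the matched members, 2 of 13 with a region in both WT lists (Ctsd and Lgmn) and 8 of 15 without had an E-box, with exact 95% intervals of 1.92% to 45.4% and 26.6% to 78.7%. Those 2 genes had their regions 2.38 to 16.8 kb and 56.1 kb away.

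Some E-box promoters did carry a peak in WT G: of the 10 windows with an E-box, 3 were covered by a WT G peak (Atp6v1a, −log10 q 4.64, Ctsl and Gaa, 2.63 each), beside 5.56% of such windows over all genes. Of the 26 member windows without an E-box, 8 were covered in WT G, beside 3.6% over all genes. Coverage in both lists was seen at Cd68 and Ctsz, and over all genes in 0.805% of windows with and 0.65% without an E-box, so no contrast between the kinds of window can be read from it. The windows below, on the strand of the gene, were chosen as the member promoter with the most E-boxes and the pair with a peak in both lists, and are not typical of the set. Lamp1 has E-boxes (capitals, starting 61, 45, 28 and 15 bases before the TSS) and no RXRα peak over the window, and Cd68 and Ctsz have no E-box.
Lamp1, chr8:13158911-13159160, plus strand: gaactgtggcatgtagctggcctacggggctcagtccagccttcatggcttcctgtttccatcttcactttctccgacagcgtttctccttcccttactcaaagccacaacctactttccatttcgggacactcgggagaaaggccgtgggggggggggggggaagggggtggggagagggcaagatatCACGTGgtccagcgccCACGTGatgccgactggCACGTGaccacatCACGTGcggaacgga
Cd68, chr11:69666171-69666420, minus strand: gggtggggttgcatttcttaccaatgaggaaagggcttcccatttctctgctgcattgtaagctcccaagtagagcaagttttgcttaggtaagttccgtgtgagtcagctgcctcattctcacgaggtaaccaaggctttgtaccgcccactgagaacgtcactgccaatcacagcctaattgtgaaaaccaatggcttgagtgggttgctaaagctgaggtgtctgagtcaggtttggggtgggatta
Ctsz, chr2:174439040-174439289, minus strand: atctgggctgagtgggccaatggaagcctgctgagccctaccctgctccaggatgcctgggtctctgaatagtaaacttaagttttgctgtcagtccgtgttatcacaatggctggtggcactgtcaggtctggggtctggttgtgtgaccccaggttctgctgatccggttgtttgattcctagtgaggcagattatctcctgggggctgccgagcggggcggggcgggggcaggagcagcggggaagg

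The third question was what remained without RXRα and RXRβ. Peaks nearest to members numbered 48 and 113 in the WT lists (80.5 ± 46, SD, n = 2), and 1 in each KO list (n = 2), and the groups did not overlap. The ratio of the means was 80.5, and the exact permutation test (two-sided) could not go below p = 0.33 with 2 libraries against 2, and it gave that value. Members with a peak numbered 18 and 27 in WT (22.5 ± 6.36) and 1 and 1 in KO, with the same p. The KO A member was 2.78% of the set, beside 0.351% of all genes, and the KO G member 2.78%, beside 0.857%. The 2 members of either KO list (5.56%, 0.68 to 18.7) stood beside 0.934% of all genes. Member peaks made up 1.01% and 1.16% of the WT lists and 1.2% and 0.481% of the KO lists, so the fewer member peaks in KO went with shorter lists as a whole.

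In KO A the peak was at Scarb2 (chr5:92504410-92504547), inside the strongest WT region of the set. It had a −log10 q of 6.15 and ranked 45 of 83 in its list. Its fold enrichment was 7.12, against 13 in WT A and 12.9 in WT G. The summit held 13 fragments, against 32 in WT A and 19 in WT G. The peak in KO G was at Ctsd (chr7:142399317-142399418), inside the strongest Ctsd region, with a −log10 q of 4.15. Its fold enrichment was 6.2, against 10.2 in WT A and 9.03 in WT G, and it held 11 fragments, against 25 and 13. Fragment numbers were not scaled to the depth of each library, so they do not measure a change between libraries. No member had a peak in both KO lists, where 0.273% of all genes had one, so a count of 0 among 36 says nothing particular about the members. Of the 41 member regions, 39 (95.1%, 83.5 to 99.4) had no KO peak, beside 94.1% of all regions. The weakest listed peaks held 10 fragments (WT A and KO A), 8 (KO G) and 5 (WT G), so weaker KO signal would not be listed. The genome-wide background in the KO lists, 0.966 and 0.936 fragments, lay between those of WT A (1.25) and WT G (0.551). These are pileup heights, scaled by 0.884 in WT A, and do not show that the libraries were of like depth.

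Other genes of the same pathways, from lists drawn up for comparison, were counted in the same way. Of 47 other lysosome genes, 11 (23.4%) had a region in both WT lists, beside 8.82% of all genes. They included Gnptab, which makes the mannose 6-phosphate tag of lysosomal enzymes (chr10:88402894-88403578, −log10 q 17 and 24.8 for WT A and WT G), the sorting receptor gene Sort1 (15.8 and 15.9) and the phospholipase gene Pla2g15 (5.22 and 10.5). Of 12 other V-ATPase subunits, 5 (41.7%) had a region. The strongest, at Atp6v0a1 (chr11:101002768-101003621, 6.26 kb upstream, 24.6 and 21.8), also had a KO G peak with a −log10 q of 6.31. Of 18 other MiT/TFE factors and genes of their control, 4 (22.2%) had a region: Tfec, with 3 regions and a strongest −log10 q of 7.14 and 6.88, Fnip1, Lamtor3 and Mtor. Tfe3 had none.

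As a check of the cell type, 9 of 10 AM marker genes had a region in both WT lists, among them Siglecf, Marco, Pparg and Chil3, and 1 of 10 markers of other cells, Cx3cr1, beside 8.82% of all genes. In single lists, the AM markers numbered 9 (WT A), 10 (WT G) and 1 (KO G), the last Itgax with a −log10 q of 5.2. The other-cell markers numbered 2, 4 and 1, beside 10.4%, 16.6% and 0.857% of all genes. Peaks are not a measure of expression, so this says only near which marker genes RXRα peaks lay.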

How the data were processed

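RXRα HT-ChIPmentation peaks of 2 WT and 2 KO AM libraries were analysed, grouped by the sample labels. Per the study's methods and the submitters' processing notes, the authors trimmed reads (Cutadapt), mapped them to mm10 (Bowtie2), discarded duplicates and called peaks in each library against the input with MACS3 at a q of 0.05, without pooling. In the deposited lists, fold enrichment is a ratio of ChIP pileup to local background, with 1 added to both. For each summit, −log10 p and −log10 q were also deposited by the authors, and the deposited score is derived from −log10 q. Read counts were not used here, and genotypes were compared by peak numbers and overlap.

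Analyses used Python 3.11.15 with scipy 1.17.1 for intervals and tests, pandas 2.3.3 and numpy 2.4.6 for tables and pysam 0.24.0 for sequence. TSSs were those of protein-coding genes in GENCODE M21, basic set, and peaks were assigned by their midpoints. WT peaks that overlapped by at least 1 bp were merged into regions. Fragments at a summit were solved from fold enrichment and p as a Poisson tail above the background, with the WT A pileup scaled by 0.884. For every peak, a whole number of fragments matched the deposited −log10 p within 0.05% of its value. Shares have 95% Clopper-Pearson intervals, which cover counting error only. Motifs were scanned on both strands. The fragment solution, the nearest TSS, the merging and overlap of peaks and the motif scan were tested on simulated data, and the other steps were not.

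The members and lists were chosen with earlier results of these data known. All 36 members were accounted for: those with a region in both WT lists by their strongest region (summed −log10 q), those with other peaks by their strongest peak, and the rest by name.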

Additional observations from a re-analysis of the deposited data

How the results depend on the processing

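Recomputing the 9 results under the alternatives that applied to each gave 81 values, and 75 stayed within the spread between replicates, the counting interval or 1.5 times the value reported. Counting an overlap only where it covered 50% of both peaks left 8 of 36 members with a region in both WT lists, against 16 at 1 bp (5.29% of all genes, against 8.82%). It left 14 member regions, with 0% in promoters and 100% without a KO peak. Fewer regions entered there by construction. Promoters of 3 kb on each side gave 26.8%. The DR1 share of member regions, 7.32% as reported, was 2.44% with at most 1 mismatch and 9.76% with 100 bp on each side of the summit. Leaving out KO A or KO G left 1 member with a KO peak in each case. The WT to KO ratio of member peaks was 48 without WT G and 113 without WT A, so the size of the ratio rests on which WT library is used. With a replicate block by the letters A and G, the paired ratios were 48 and 113 and their geometric mean 73.6 (18, 27 and 22 for members with a peak). Groups of 2 give no check that the letters pair the libraries. With WT G cut to its strongest 4751 peaks, the ratio was 53. At that setting 15 of the 16 members kept a region in both lists, beside 7.32% of all genes, and Atp6v0d1 was lost. Any region within 50 kb of a member TSS gave 22 members in both lists (61.1%), beside 16% of all genes under that rule. Weak peaks rest on few fragments, and absence from a list is not absence of binding.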
